A study of Homo sapiens with 18 samples.

Results

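OPM2 is a human multiple myeloma cell line, a culture of malignant plasma cells that carries the t(4;14) translocation. Here its inducible CRISPR-Cas9 knockout of IKZF3, the gene of the transcription factor Aiolos, was set against the same line with the empty vector (EV). Both knockout columns of the deposited gene counts and both EV columns were taken, 4 of the 18 libraries of the series, and all 14571 genes that passed the count filter were tested. The knockout group was OPM2 with inducible Cas9 and a guide to IKZF3, and the EV group was OPM2 with the vector alone. Both received doxycycline at 1 µg/mL for 72 h, and live cells were sorted by light scatter before RNA extraction. A pair of untreated OPM2 libraries at 72 h, for which the labels name neither a vector nor an agent, served as a further control. Used where the IKZF3 knockout is set against them are 2 OPM2 libraries with an inducible IKZF1 knockout and 2 treated with lenalidomide. The IKZF1 knockout libraries also received doxycycline at 1 µg/mL for 72 h. Lenalidomide was given at 10 µM for 72 h, and the labels name no doxycycline for it. The knockout libraries are called a and b. The labels do not say whether they came from separate cultures, clones or guides. P-values therefore measure only a spread between libraries of a group, which may be technical. That spread was estimated over all 9 groups of 2 libraries in the series, not from the compared libraries alone.

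Aiolos and its relative Ikaros (IKZF1) are zinc finger proteins of lymphoid cells that bind DNA as homo- and heterodimers and recruit repressing and activating complexes, among them the nucleosome remodelling complex NuRD. Plasma cells and myeloma cells depend on both factors, and lenalidomide, a myeloma drug, directs the cereblon ubiquitin ligase to degrade both. CD38, an ectoenzyme that consumes NAD, is the target of therapeutic antibodies in myeloma, and genes induced by type I interferon are known to rise when Ikaros and Aiolos are lost. OPM2 cells also carry an active FGFR3 receptor on the translocated chromosome, which signals through the MAP kinase cascade. In bulk RNA, fewer cells of a kind and less RNA per cell cannot be told apart.

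Assigned reads (M, mega-reads) numbered 15.7 M and 24.2 M in knockout libraries a and b, and 15.8 M and 22.4 M in EV replicates 1 and 2. The EV pair was the least alike of the OPM2 pairs: 1155 genes lay more than 2-fold apart between its replicates, against 235 between the knockout libraries and 131 between the untreated ones. EV replicate 1 departed from the untreated libraries along gene length and GC content. In the shortest quintile of genes its median log2 ratio to the untreated mean was 0.75 and in the longest quintile -0.82, with -0.70 in the quintile of lowest and 0.65 in the quintile of highest GC content. EV replicate 2 leaned the same way by less, with 0.23 in the shortest and -0.22 in the longest quintile. Knockout libraries a and b had values between -0.06 and 0.08 in these quintiles. Genes called higher in the knockout had a median transcript length of 5495 bases and those called lower one of 2432 bases. As a description over genes, which are not independent and share these libraries, the knockout-minus-EV change across 11452 genes correlated with log length at 0.38 with both EV replicates and at 0.19 without replicate 1. The part of this lean in any single gene was not tested.

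**Figure D1:**
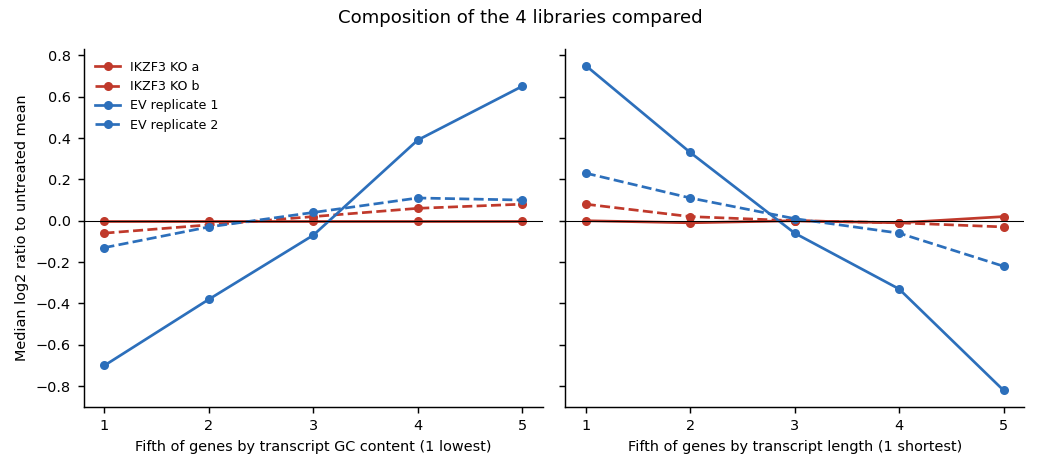
Median log2 ratio of each OPM2 library to the mean of the untreated libraries (vertical axis) in quintiles of genes by GC content and by transcript length (horizontal axes). EV replicate 1 runs between -0.70 and 0.65 along GC content and between 0.75 and -0.82 along length, while the IKZF3 knockout libraries stay between -0.06 and 0.08.

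Markers of plasma cells were abundant. Summed over 11 plasma cell markers the level was 14400 and 14100 CPM (read counts scaled to a common library size) in knockout libraries a and b. In EV replicates 1 and 2 it was 13400 and 13100 CPM. JCHAIN was the largest part, at 8137 and 8068 CPM in the knockout, against 6062 and 6867 CPM in EV. Of these 11 markers 3 were called higher and 5 lower, beside 16.2% and 20.6% over all genes. Their median log2 fold change was -0.45, or -0.14 without EV replicate 1. Markers of erythroid cells and platelets summed to 14.2 and 7.94 CPM in the knockout libraries, against 19.2 and 10.4 CPM in EV, and those of stromal and epithelial cells to 9 and 9.86 CPM, against 8.74 and 10.6 CPM in EV. Of 15 T and NK cell markers 8 were at 0 in all 4 libraries, and their sum was at most 0.204 CPM in the knockout libraries and 0.593 CPM in the EV libraries. FGFR3 and NSD2, the genes brought under immunoglobulin control by t(4;14), were both highly expressed. Myeloid markers summed to 30.3 and 27 CPM in the knockout libraries, against 4.56 and 2.24 CPM in EV. Nearly all of that was CD68, a lysosomal membrane protein also made outside the myeloid lineage, while 4 of the other 12 markers were at 0 in all 4 libraries.

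The targeted transcript was not lower in the knockout. IKZF3 (Entrez 22806, chromosome 17, 39757715 to 39864312) had 69.3 and 66.6 CPM in knockout libraries a and b, against 44.0 and 50.3 CPM in EV replicates 1 and 2, and 61.1 and 60.5 CPM in the untreated libraries. The log2 fold change over EV was 0.52 ± 0.17 (SE; adjusted p = 0.0287 by the quasi-likelihood test of edgeR, adjusted by Benjamini-Hochberg over all genes tested), and the value turned to -0.02 with GC content and length corrected. The call was lost without EV replicate 1 (0.47, adjusted p = 0.144 by edgeR), without knockout library a (0.50, adjusted p = 0.121 by edgeR) and without knockout library b (0.55, adjusted p = 0.0771 by edgeR). Counts over the whole gene include transcripts whose reading frame Cas9 has broken, so they do not check the knockout, and the libraries are called knockout after their labels. IKZF1 had 226 and 215 CPM in the knockout libraries, against 94.3 and 188 CPM in EV and 212 and 225 CPM untreated, so EV replicate 1 alone stood apart. The log2 fold change of 0.64 was lost without that library (0.26, adjusted p = 0.275 by edgeR). Of the 5 family members IKZF2 (Helios) was the 1 called with every library left out, at 19.8 and 19.5 CPM in the knockout, against 5.58 and 8.76 CPM in EV (log2 fold change 1.43). At 15.5 and 14.2 CPM the untreated libraries lay near the knockout, and knockout over untreated was not called (log2 fold change 0.40, adjusted p = 0.299 by edgeR).

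Across all genes the knockout libraries had 2360 genes higher and 3006 lower than EV at an adjusted p under 0.05, which is 16.2% and 20.6% of the genes tested. In the fit without EV replicate 1 these numbers were 1802 and 1680, and without replicate 2 they were 3845 and 4171. A stricter reading keeps genes called in the same direction in the full fit and with each of the 4 libraries left out in turn, called stable below: 933 higher (6.4%) and 1138 lower (7.81%). Against the untreated libraries 545 genes were higher (3.74%) and 660 lower (4.53%). Of the stable genes, 265 of those higher and 202 of those lower were also called against the untreated libraries. The spread in these fits was estimated over 9 groups of 2 libraries. It may therefore be too small for the EV pair, the least alike of the OPM2 pairs. With only the 4 compared libraries fitted, 37 genes were called higher and 15 lower, with 2754 genes at an unadjusted p under 0.05 of 12402 tested.

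CD38 rose against both controls. The gene (Entrez 952, chromosome 4, 15778328 to 15853232) had 44.1 and 51.9 CPM in knockout libraries a and b, against 15.6 and 17.4 CPM in EV replicates 1 and 2 and 10.9 and 12.7 CPM in the untreated libraries. Both knockout libraries lay above all 4 control libraries, and the EV libraries lay above the untreated ones. The log2 fold change was 1.54 ± 0.21 over EV (adjusted p = 0.000282 by edgeR) and 2.03 ± 0.22 over untreated (adjusted p = 5.94e-05 by edgeR), and 1.5 without EV replicate 1. With the 4 libraries fitted alone the adjusted p was 0.0678 by edgeR. The sequence around its start is shown because the letters GAAANNGAA, the core of the element bound by interferon-regulated factors, occur in it once. It is the RefSeq window of chr4:15778078-15778377 on the plus strand of GRCh38.p14, from 250 bases before to 50 after the annotated start, with the match in capitals, 17 bases before the start.
CD38 promoter: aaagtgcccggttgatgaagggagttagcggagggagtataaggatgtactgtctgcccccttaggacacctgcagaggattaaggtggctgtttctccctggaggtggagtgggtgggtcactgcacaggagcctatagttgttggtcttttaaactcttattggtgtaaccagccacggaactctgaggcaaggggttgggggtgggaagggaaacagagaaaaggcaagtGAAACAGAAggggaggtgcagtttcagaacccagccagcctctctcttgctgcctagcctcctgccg
Of 27305 genes with such windows, 9.86% hold that motif on either strand.

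Of 19 tested genes of NAD metabolism, CD38 among them, 4 were called higher and 4 lower, shares near those over all genes (16.2% and 20.6%), and 3 and 1 were stable. NMRK1, which phosphorylates nicotinamide riboside in the salvage of NAD, had 50.9 and 45.3 CPM in the knockout libraries, against 19.2 and 19.3 CPM in EV and 25.1 and 23.5 CPM untreated. All libraries of each group were close and the groups did not overlap (log2 fold change 1.32 ± 0.11, adjusted p = 9.92e-06 by edgeR, and 0.98 over untreated). KMO, an enzyme of the kynurenine pathway from tryptophan to NAD, fell by 0.75 on the log2 scale against EV and by the same amount against untreated, at 9.25 and 9.25 CPM in the knockout and 15.1 and 16 CPM in EV. NAMPT, the main salvage enzyme, had 329 and 320 CPM in the knockout, against 144 and 229 CPM in EV. It was called higher than EV (0.80) but had 346 and 368 CPM untreated, a log2 fold change of -0.14 that was not called.

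Among the 14 genes named for the highest fold change were CX3CR1, MLC1, AFAP1L2 and RAP1GAP2, all nearly silent or low in the controls. CX3CR1, the receptor of the membrane-bound chemokine fractalkine, had 26.1 and 55.2 CPM in knockout libraries a and b, against 0.735 and 1.14 CPM in EV and 1.79 and 1.65 CPM untreated (log2 fold change 5.38 ± 0.44, adjusted p = 5e-06 by edgeR). AFAP1L2, an adaptor of Src family kinases, had 123 and 185 CPM in the knockout, against 7.94 and 7.94 CPM in EV and 8.41 and 6.73 CPM untreated (4.28 ± 0.30, adjusted p = 1.63e-06 by edgeR). MLC1, a membrane protein best known from astrocytes, had 32.9 and 16.5 CPM in the knockout, against 1.25 and 0.593 CPM in EV. For CX3CR1 and AFAP1L2 both knockout libraries stood far above all 4 control libraries, and for MLC1 above both EV libraries. RAP1GAP2, which switches off the small GTPase Rap, had 10.4 and 6.64 CPM in the knockout, against 0.441 and 0.456 CPM in EV. CYTH4, an exchange factor of ARF GTPases in leukocytes, had 4.53 and 3.06 CPM in the knockout, against 0.294 and 0.0456 CPM in EV, and C16orf54 had 2.20 and 3.58 CPM, against 0.0735 and 0.137 CPM. CX3CR1, MLC1, AFAP1L2, RAP1GAP2 and C16orf54 were also called with only the 4 libraries fitted, at adjusted p of 0.024 to 0.0428 by edgeR. CD68, the lysosomal protein above, had 29.3 and 26.4 CPM in the knockout, against 2.65 and 1.55 CPM in EV and 3.26 and 2.86 CPM untreated (3.78 ± 0.36, adjusted p = 2.06e-05 by edgeR).

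Several genes that were nearly silent in the controls were detected in the knockout at low counts. The calcium channel subunit CACNA1A had 42 reads over the knockout pair and 0 over the EV pair, at least 12.3-fold higher against a floor of 3 counts over the group, and the leukocyte myosin MYO1F had 33 and 0, at least 9.66-fold higher. Reads of LGALS3BP, a secreted galectin ligand, were 63 in the knockout and 2 in EV, a ratio of 27.7 (95% counting interval 7.35 to 233). The inhibitory receptor LILRB1 had 28 reads in the knockout and 1 in EV (24.6, interval 4.07 to 1010), the adhesion molecule ICAM1 26 and 1 (22.8, interval 3.75 to 936) and the adhesion receptor ADGRG5 24 and 1 (21.1, interval 3.44 to 867). All 6 were stable and were also called against the untreated libraries, and each stayed at or below 2.16 CPM.

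**Figure D2:**
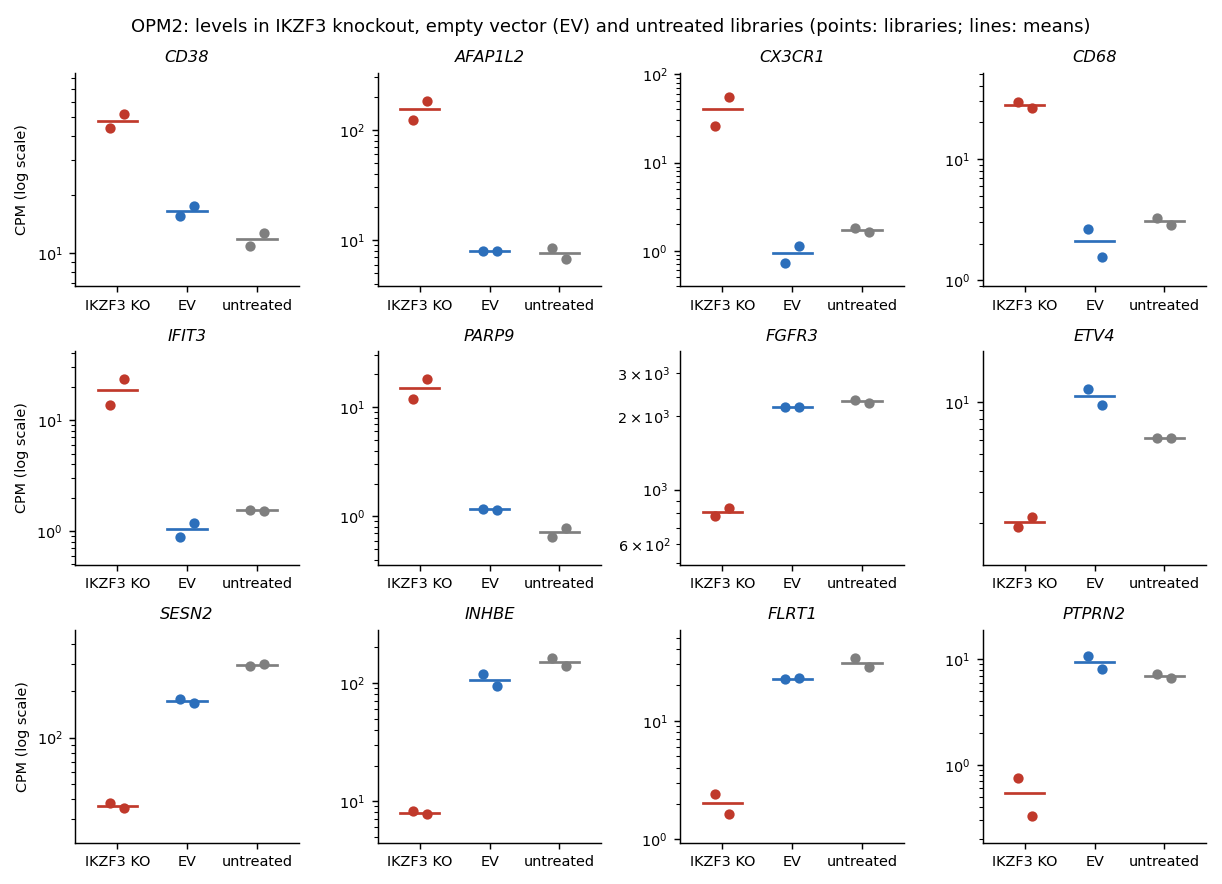
Level of 12 genes in each IKZF3 knockout, EV and untreated OPM2 library, in CPM on a log axis, with 1 point per library and a line at the mean. CX3CR1 and AFAP1L2 stand far above both control groups in both knockout libraries, and INHBE and SESN2 far below.

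A part of the interferon-stimulated genes rose. The median log2 fold change of the 62 tested was 1.17, beside -0.03 over all genes tested. Of these 62, 21 were called higher and 3 lower, beside 16.2% and 20.6% over all genes. Without EV replicate 1 these were 12 and 2, and 10 were stable and higher, with none stable and lower. Over all genes 6.4% were stable and higher and 7.81% stable and lower. Against the untreated libraries 7 of the 62 were higher and 2 lower, beside 3.74% and 4.53% over all genes, with a median of 0.55. IFIT3, an antiviral protein of the IFIT complex, had 13.7 and 23.6 CPM in the knockout, against 0.882 and 1.19 CPM in EV and 1.56 and 1.5 CPM untreated (4.14 ± 0.40, adjusted p = 2e-05 by edgeR). PARP9, an ADP-ribosyltransferase that enhances interferon signalling, had 11.8 and 18.3 CPM in the knockout, against 1.18 and 1.14 CPM in EV and 0.644 and 0.787 CPM untreated (3.71 ± 0.40, adjusted p = 5.1e-05 by edgeR). Both knockout libraries stood clear of all 4 controls for both genes. Its partner DTX3L, an E3 ubiquitin ligase read from the opposite strand of the same start region and chosen after its values were seen, had 14.4 and 16.1 CPM in the knockout, against 4.70 and 4.52 CPM in EV and 4 and 4.44 CPM untreated. The kit does not mark strand, so reads in any stretch shared by both genes could not be assigned to one of them.

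Of the oligoadenylate synthetases, which sense double-stranded RNA, OAS2 and OAS1 were called higher than both controls, but the controls differed. OAS2 had 7.49 and 7.09 CPM in the knockout, against 0.661 and 1.73 CPM in EV and 3.17 and 3.58 CPM untreated, so its log2 fold change was 2.49 over EV and 1.12 over untreated. OAS1, chosen after its values were seen, had 4.72 and 5.38 CPM in the knockout, against 0.808 and 0.867 CPM in EV and 2.39 and 1.5 CPM untreated (2.58 and 1.33). OASL, also chosen so, had 4.28 and 6.48 CPM in the knockout, against 2.20 and 1.32 CPM in EV and 2.57 and 1.5 CPM untreated, and was neither stable nor called against untreated. IFIT5 followed the same order at 7.11 and 6.52 CPM in the knockout, 0.220 and 0.548 CPM in EV and 3.13 and 3.22 CPM untreated, and its difference from untreated was not called (1.10, adjusted p = 0.0556 by edgeR). For OAS2, OAS1 and IFIT5 EV lay below untreated, so the change over EV was the larger of the 2.

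Start regions of IFIT3 and PARP9 are shown for the same motif as in CD38, here matched on the reverse strand, so that its reverse complement stands in capitals. Both genes have 2 windows each, and the first that held the motif is shown. In this IFIT3 window, chr10:89327747-89328046 on the plus strand, the motif occurs at 155 and 121 bases before the start. In the PARP9 window, chr3:122564251-122564550 on the minus strand, it occurs at 40 bases before the start.
IFIT3 promoter: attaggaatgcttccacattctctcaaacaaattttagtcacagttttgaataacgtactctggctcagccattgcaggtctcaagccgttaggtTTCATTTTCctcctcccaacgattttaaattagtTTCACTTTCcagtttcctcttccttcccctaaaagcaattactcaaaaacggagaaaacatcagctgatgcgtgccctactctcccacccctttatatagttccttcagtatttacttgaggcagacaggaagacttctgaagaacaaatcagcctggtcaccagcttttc
PARP9 promoter: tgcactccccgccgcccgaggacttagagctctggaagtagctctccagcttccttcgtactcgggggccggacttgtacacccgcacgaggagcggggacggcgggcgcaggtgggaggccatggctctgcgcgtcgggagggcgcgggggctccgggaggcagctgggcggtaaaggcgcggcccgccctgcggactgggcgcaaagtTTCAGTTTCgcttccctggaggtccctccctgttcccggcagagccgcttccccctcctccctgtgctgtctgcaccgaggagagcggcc
Of the 49 interferon-stimulated genes with a window, 35 (71.4%) held the motif, as did 7 of the 9 stable ones (77.8%), beside 9.03% of the tested genes that have a window. A match describes these letters only and is not a binding site.

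Upstream parts of the interferon pathway were read next, beside 16.2% of all genes called higher than EV and 20.6% lower. Of 27 receptors, kinases and factors 13 were called higher and 2 lower (10 and 0 without EV replicate 1), and 5 were stable and higher. Against untreated 3 of these 27 were higher and 2 lower, beside 3.74% and 4.53% over all genes, with a median log2 fold change of 0.25. EV itself had 9 of them lower and 3 higher than untreated. TMEM173 (STING), the adaptor of cytosolic DNA sensing, had 161 and 150 CPM in the knockout, against 80.6 and 59.7 CPM in EV and 96.4 and 91.8 CPM untreated (1.15 ± 0.15, adjusted p = 0.000219 by edgeR). IRF9, the DNA-binding part of the ISGF3 complex, had 20.2 and 21.4 CPM in the knockout, against 13 and 9.45 CPM in EV and 10.1 and 10.2 CPM untreated (0.90 over EV and 1.04 over untreated). Both genes stood above every control library. JAK1, a receptor kinase, had 159 and 143 CPM in the knockout, against 42.3 and 91.8 CPM in EV, but 123 and 128 CPM untreated, and that last difference was not called (0.26, adjusted p = 0.546 by edgeR). Of 22 genes of MHC class I presentation 4 were called higher and 2 lower with both EV replicates, but 9 and 0 without EV replicate 1 and 11 and 3 with GC content and length corrected. The light chain B2M had 2552 and 2470 CPM in the knockout, against 1827 and 1563 CPM in EV and 1536 and 1520 CPM untreated (0.57 over EV and 0.72 over untreated). The peptide transporter TAP1 had 152 and 158 CPM in the knockout, against 84.4 and 72.8 CPM in EV. Neither gene was called with every library left out. Of 17 MHC class II genes none was called higher and 3 lower, with none stable, a share no larger than the 20.6% over all genes. Their median log2 fold change was -0.44, or -0.26 without EV replicate 1. Against untreated 3 were lower and none higher, beside 4.53% and 3.74% over all genes, with a median of -0.645.

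Genes of leukocyte surfaces and immune checkpoints went both ways, where over all genes 16.2% were called higher and 20.6% lower. Among 25 myeloma surface targets 8 were called higher and 3 lower, and 4 were stable and higher with 1 lower. CD274 (PD-L1), a ligand that restrains T cells, had 2.64 and 2.49 CPM in the knockout, against 0.808 and 0.137 CPM in EV and 0.138 and 0.429 CPM untreated (2.62 ± 0.58, adjusted p = 0.00394 by edgeR). TNFRSF14 (HVEM), the receptor of BTLA and LIGHT, had 11.7 and 13.3 CPM in the knockout, against 6.61 and 3.88 CPM in EV. CD47, which signals against phagocytosis, had 119 and 122 CPM in the knockout, against 89.3 and 86.2 CPM in EV (0.45). That call was stable, but the value was -0.15 with GC content and length corrected. In the other direction CD48, a SLAM family ligand of NK cells, had 346 and 376 CPM in the knockout, against 666 and 553 CPM in EV and 559 and 540 CPM untreated (-0.76 ± 0.14, adjusted p = 0.00141 by edgeR). SLAMF7, the target of the antibody elotuzumab, had 373 and 356 CPM in the knockout, against 523 and 524 CPM in EV, and was not called (-0.52, adjusted p = 0.0638 by edgeR).

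Of 35 actin genes of leukocytes 11 were called higher and 5 lower, and none was called lower without EV replicate 1 (9 higher), with GC content and length corrected (18 higher) or against untreated (4 higher), and 6 were stable, all higher. VAV1, a signalling protein downstream of antigen receptors, had 110 and 77.6 CPM in the knockout, against 33.3 and 22.1 CPM in EV and 28.2 and 27.4 CPM untreated (1.77 ± 0.20, adjusted p = 7.25e-05 by edgeR). TMSB4X, which binds actin monomers, had 405 and 424 CPM in the knockout, against 222 and 149 CPM in EV and 191 and 204 CPM untreated (1.16 over EV and 1.07 over untreated). Both genes stood above every control library. LCP1 (L-plastin) had 6.11 and 6.76 CPM in the knockout, against 2.50 and 2.88 CPM in EV, while the untreated libraries had 6.8 and 5.37 CPM. Of 37 integrin and adhesion genes 11 were called higher and 5 lower, where over all genes 16.2% were called higher and 20.6% lower. Their median log2 fold change was 0.07, or 0.14 without EV replicate 1. ITGB5, the beta subunit paired with integrin alpha V, had 848 and 754 CPM in the knockout, against 376 and 324 CPM in EV and 345 and 341 CPM untreated (1.19 ± 0.10, adjusted p = 9.92e-06 by edgeR).

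Cytokine receptors and lymphoid regulators went both ways. IL21R fell to 3.27 and 4.28 CPM in the knockout, against 14 and 9.72 CPM in EV and 21.3 and 18.3 CPM untreated (-1.62 ± 0.20, adjusted p = 0.00013 by edgeR). IL4R had 41.7 and 47.7 CPM in the knockout, against 29.2 and 22.5 CPM in EV and 24.8 and 22.8 CPM untreated (0.80 ± 0.14, adjusted p = 0.00109 by edgeR). Both were called against either control. ETS1, a lymphoid transcription factor that opposes plasma cell differentiation, had 216 and 199 CPM in the knockout, against 45.9 and 88.8 CPM in EV and 79.4 and 82.2 CPM untreated (1.62 over EV and 1.36 over untreated). BACH2, a repressor of the plasma cell fate, had 37.1 and 33.1 CPM in the knockout, against 5 and 14.9 CPM in EV, but 26.5 and 26.6 CPM untreated. CR2, the complement receptor of B cells, had 0.0629 and 0.530 CPM in the knockout, against 1.25 and 2.10 CPM in EV (-2.33). Of 34 chemokines, cytokines and receptors 9 were called higher and 6 lower, and of 21 B cell genes 6 higher and 2 lower. Over all genes 16.2% were called higher and 20.6% lower. The median log2 fold changes of these lists were 0.19 and 0.52, or 0.21 and 0.65 without EV replicate 1. IL6ST (gp130), the signalling receptor of the myeloma growth factor interleukin-6, and DKK1, a secreted Wnt antagonist, were both called higher than EV but not than untreated, IL6ST at 1.64 over EV and 0.19 over untreated and DKK1 at 2.35 over EV and 0.73 over untreated. Of 24 NF-kB genes 6 were called higher and 2 lower, with a median log2 fold change of -0.02, or 0.02 without EV replicate 1. BCL3, a nuclear partner of NF-kB, had 33.3 and 29.9 CPM in the knockout, against 21.1 and 16.1 CPM in EV and 17.1 and 12.1 CPM untreated. TNFAIP3 (A20), a feedback inhibitor, had 34.9 and 29.4 CPM in the knockout, against 6.54 and 11.9 CPM in EV but 30.2 and 28.3 CPM untreated.

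FGFR3 and MYC were lower in the knockout. FGFR3 had 783 and 844 CPM in knockout libraries a and b, against 2179 and 2168 CPM in EV and 2316 and 2268 CPM untreated, so the 4 controls lay within 2168 and 2316 CPM and both knockout libraries far below (log2 fold change -1.42 ± 0.30, adjusted p = 0.0033 by edgeR). NSD2, the other gene at the translocation, had 1873 and 1775 CPM in the knockout, against 1148 and 1520 CPM in EV and 2068 and 2120 CPM untreated, a log2 fold change of 0.45 over EV and -0.20 over untreated. MYC, the driver of growth and ribosome synthesis, had 211 and 239 CPM in the knockout, against 521 and 603 CPM in EV and 533 and 539 CPM untreated (-1.32 ± 0.15, adjusted p = 6.67e-05 by edgeR). Of 26 genes of FGFR3 and MAP kinase feedback 7 were called lower than EV and 2 higher, beside 20.6% and 16.2% over all genes. Their median log2 fold change was -0.33, or -0.32 without EV replicate 1. Against untreated 11 were lower with none higher, beside 4.53% and 3.74% over all genes. But EV itself had 11 genes of this list lower and 3 higher than untreated, with a median of -0.61. ETV4, an Ets factor induced by FGF signalling, had 1.89 and 2.16 CPM in the knockout, against 11.9 and 9.63 CPM in EV and 6.21 and 6.15 CPM untreated (-2.39 over EV and -1.60 over untreated). DUSP2, a phosphatase of ERK, had 19.9 and 21.5 CPM in the knockout, against 54.4 and 37.2 CPM in EV but 23.8 and 21.3 CPM untreated, so it was called lower than EV (-1.14) and not against untreated (-0.12, adjusted p = 0.806 by edgeR). A pair of further feedback inhibitors was chosen after their values were seen. SPRY2 had 3.59 and 3.18 CPM in the knockout, against 7.2 and 6.98 CPM in EV and 8.73 and 7.44 CPM untreated. The ERK phosphatase DUSP6 had 26.9 and 22.2 CPM in the knockout, against 32.8 and 50.4 CPM in EV and 67.9 and 67.6 CPM untreated (-0.77 over EV and -1.47 over untreated), and was not stable. FGFR3, MYC, ETV4 and SPRY2 were stable and were also called against the untreated libraries.

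Genes of the amino acid response governed by the transcription factor ATF4 were lower in the knockout than in both controls. Under amino acid shortage or endoplasmic reticulum stress, ATF4 turns on enzymes of serine and asparagine synthesis, amino acid transporters, aminoacyl-tRNA synthetases and stress regulators. The median log2 fold change of 38 tested genes of this list was -1.04, beside -0.03 over all genes. Of these 38, 27 were called lower than EV and none higher, beside 20.6% and 16.2% over all genes. Without EV replicate 1 they were 28 and 0, with a median of -0.81, and with GC content and length corrected 29 lower and 1 higher. Stable and lower were 24, beside 7.81% over all genes, and all of these 24 were also called lower than untreated. Against untreated as a whole, 31 were lower and 1 higher, beside 4.53% and 3.74% over all genes, with a median of -1.06.

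Among its regulators, ATF4 itself, chosen after its values were seen, had 442 and 449 CPM in the knockout, against 1309 and 812 CPM in EV and 908 and 887 CPM untreated (-1.25 ± 0.16, adjusted p = 0.000192 by edgeR). DDIT3 (CHOP), its target and a pro-apoptotic factor, also chosen so, had 5.67 and 7.01 CPM in the knockout, against 31.7 and 19.4 CPM in EV and 17.5 and 18.1 CPM untreated. CEBPB, a partner of both, also chosen so, had 46.7 and 47.6 CPM in the knockout, against 155 and 119 CPM in EV and 144 and 130 CPM untreated. All 3 stood below each of the 4 control libraries. TRIB3, a pseudokinase that damps the response, had 34.7 and 31.8 CPM in the knockout, against 190 and 127 CPM in EV and 133 and 126 CPM untreated (-2.25 ± 0.16, adjusted p = 1.63e-06 by edgeR). SESN2, which restrains mTORC1 when leucine is short, had 37.8 and 35.0 CPM in the knockout, against 177 and 167 CPM in EV and 291 and 298 CPM untreated (-2.24 ± 0.13, adjusted p = 4.86e-07 by edgeR, and -3.02 over untreated). INHBE, an activin subunit induced by the same stress, had 8.18 and 7.74 CPM in the knockout, against 119 and 93.8 CPM in EV and 162 and 140 CPM untreated (-3.74 ± 0.23, adjusted p = 6.07e-07 by edgeR). The change in TRIB3, SESN2 and INHBE was called with only the 4 libraries fitted as well.

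Enzymes and a transporter of the list are given next. ASNS, asparagine synthetase, had 81.2 and 73.8 CPM in the knockout, against 281 and 256 CPM in EV and 300 and 318 CPM untreated (-1.79 ± 0.16, adjusted p = 1.21e-05 by edgeR). PSPH, the last enzyme of serine synthesis, had 27.0 and 30.1 CPM in the knockout, against 89.0 and 85.3 CPM in EV and 106 and 107 CPM untreated (-1.61 ± 0.13, adjusted p = 5e-06 by edgeR). SLC7A5 (LAT1), the carrier of large neutral amino acids, chosen after its values were seen, had 853 and 827 CPM in the knockout, against 2281 and 2040 CPM in EV and 1941 and 1923 CPM untreated. These values put the knockout at well under each control library. CHAC1, which degrades glutathione, also chosen so, had 10.3 and 10.6 CPM in the knockout, against 55.2 and 36.0 CPM in EV and 68.6 and 67.1 CPM untreated (-2.11 ± 0.24, adjusted p = 6.41e-05 by edgeR). ATF3, another stress factor, had 16.6 and 20.6 CPM in the knockout, against 43.2 and 36.1 CPM in EV and 44.2 and 47.9 CPM untreated (-1.08 ± 0.14, adjusted p = 0.000202 by edgeR). Of 37 genes of the unfolded protein response and endoplasmic reticulum folding 12 were called lower and 2 higher than EV, beside 20.6% and 16.2% over all genes. Without EV replicate 1 they were 8 and 1, 7 and 0 were stable, and 4 were lower and 1 higher than untreated. HERPUD1, which helps clear misfolded proteins, had 245 and 247 CPM in the knockout, against 459 and 401 CPM in EV and 572 and 539 CPM untreated.

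**Figure D3:**
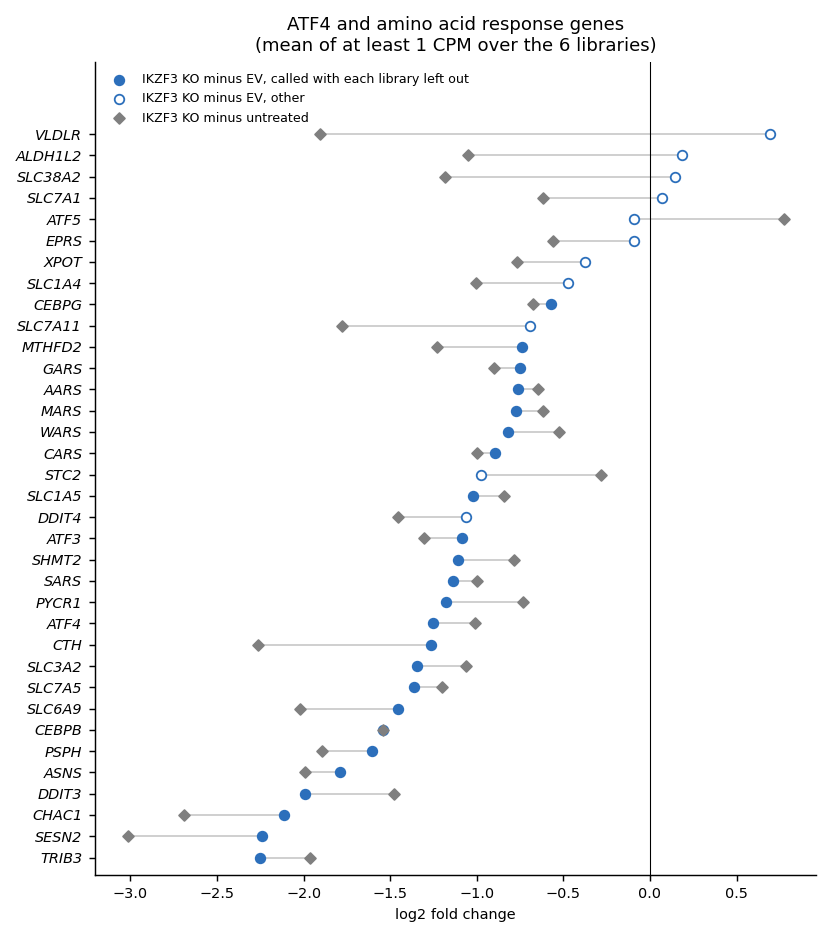
Log2 fold change of 35 ATF4 and amino acid response genes with a mean of at least 1 CPM over the 6 libraries (rows), for IKZF3 knockout minus EV (circles, filled where called with each of the 4 libraries left out) and knockout minus untreated (diamonds). All 24 filled circles and the diamonds of the same genes lie left of 0.

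Start regions of ASNS and CHAC1 are shown for TGATGNAA, the core of the composite element of ATF4 and C/EBP factors, in capitals. ASNS has 2 windows, of which the first that held the core is shown, and CHAC1 has 1. In ASNS, chr7:97872359-97872658 on the minus strand of GRCh38.p14, the core lies 68 bases before the start. In CHAC1, chr15:40953221-40953520 on the plus strand, it lies on the reverse strand, as its reverse complement, at 209 bases before the start.
ASNS promoter: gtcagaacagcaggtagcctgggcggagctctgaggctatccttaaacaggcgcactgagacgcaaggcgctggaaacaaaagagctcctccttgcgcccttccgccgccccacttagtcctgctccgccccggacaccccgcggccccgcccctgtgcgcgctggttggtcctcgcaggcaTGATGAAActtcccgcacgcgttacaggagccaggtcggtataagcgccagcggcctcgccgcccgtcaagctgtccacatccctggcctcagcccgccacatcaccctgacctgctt
CHAC1 promoter: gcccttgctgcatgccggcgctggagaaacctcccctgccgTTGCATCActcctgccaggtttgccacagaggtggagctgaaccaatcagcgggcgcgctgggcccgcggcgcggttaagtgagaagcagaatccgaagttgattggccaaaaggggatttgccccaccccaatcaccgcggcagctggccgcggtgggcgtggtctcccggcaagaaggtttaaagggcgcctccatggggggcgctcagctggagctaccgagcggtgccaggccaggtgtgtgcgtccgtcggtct
This core occurred in the windows of 12 of 33 genes of the list (36.4%) and of 10 of the 21 stable ones (47.6%), beside 2.78% of tested genes with a window. The windows of SESN2, TRIB3, DDIT3 and ATF4 held no match, which says only that these letters are not within 250 bases before the start.

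The 14 genes named for the lowest fold change also included PTPRN2, FLRT1, FUT1, GPNMB and COL6A1. PTPRN2, a phosphatase-like protein of secretory granules, had 0.755 and 0.326 CPM in the knockout, against 10.7 and 8.03 CPM in EV and 7.22 and 6.73 CPM untreated (-4.19 ± 0.45, adjusted p = 5.1e-05 by edgeR). FLRT1, a membrane protein that binds FGF receptors, had 2.39 and 1.63 CPM in the knockout, against 22.3 and 22.9 CPM in EV and 33.7 and 28.3 CPM untreated (-3.52 ± 0.23, adjusted p = 9.24e-07 by edgeR). FUT1, which builds the H blood group antigen, had 1.2 and 1.47 CPM in the knockout, against 11.6 and 9.86 CPM in EV and 13.2 and 12.8 CPM untreated (-2.98 ± 0.40, adjusted p = 0.00021 by edgeR). For these 3 genes both knockout libraries lay below all 4 control libraries. GPNMB, a lysosomal glycoprotein, had 4 reads in the knockout, 61 in EV and 50 untreated, and COL6A1, a collagen VI chain, had 5, 59 and 58. BEX3 had 0.252 and 2.08 CPM in the knockout, against 13.9 and 9.04 CPM in EV, with knockout library a the lower. TIRAP, the adaptor of Toll-like receptors 2 and 4, had 0 reads over the knockout pair, 24 over EV and 44 over untreated, at least 9.11-fold lower than EV against 3 counts over the group. ILDR1 had 1, 15 and 22 reads (17.1-fold lower than EV, 95% counting interval 2.63 to 719).

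A further 5 of these genes were higher in EV than in both other groups. MAGEB2, a cancer-testis antigen, had 0.0629 and 0.0815 CPM in the knockout, against 4.11 and 3.51 CPM in EV but 0.138 and 0.358 CPM untreated, a ratio of 50.5 to EV (95% counting interval 16.9 to 248). HDHD3 had 0 reads in the knockout and 26 in EV (at least 9.87-fold lower) and 0 untreated. C11orf96 had 3 reads in the knockout, 47 in EV (17.8-fold lower, interval 5.74 to 89.6) and 3 untreated. RNF130, an E3 ubiquitin ligase, had 0, 17 and 4 reads (at least 6.45-fold lower than EV), and the ion channel gene TRPV2 had 7, 62 and 18. None of these 5 was called between knockout and untreated.

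Whole gene groups of growth also stood lower than EV, with few or no calls against the untreated cells. Shares over all genes were 20.6% lower and 16.2% higher than EV, and 4.53% lower and 3.74% higher than untreated. Of 78 cytosolic ribosomal protein genes 76 were called lower than EV and none higher, with a median log2 fold change of -0.89, or 58 and -0.44 without EV replicate 1. Against untreated none was called in either direction and the median was -0.05. With both EV replicates 75 were higher in EV than untreated. The median of EV minus untreated was 0.805, and 0.328 without EV replicate 1. RPL38 had 128 and 162 CPM in the knockout, against 483 and 286 CPM in EV and 183 and 123 CPM untreated, and RPL23 had 336 and 383 CPM, against 887 and 574 CPM in EV and 381 and 348 CPM untreated. The median length of their longest annotated transcripts was 1842 bases, beside 3594 bases over all genes tested. EV replicate 1 was raised as a whole in the shortest quintile of genes, and the part of this in single genes was not tested. With GC content and length corrected 66 were called lower, with a median of -0.57, and with EV replicate 1 left out as well 42, with a median of -0.33. Of 62 nuclear genes of the respiratory chain 58 were lower than EV (41 without EV replicate 1) and none was called against untreated, for example NDUFS5, a complex I subunit, at 106 and 113 CPM in the knockout, 323 and 180 CPM in EV and 120 and 101 CPM untreated.

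Of 43 MYC targets of ribosome biogenesis and growth 31 were called lower than EV and none higher (31 also without EV replicate 1), with a median of -0.73, or -0.43 without that library. Shares over all genes were 20.6% lower and 16.2% higher than EV. Against untreated 1 of the 43 was higher and 2 lower, beside 3.74% and 4.53% over all genes, with a median of 0.22. Of the 43, 35 were higher in EV than untreated with none lower. The median of EV minus untreated was 0.764, and 0.619 without EV replicate 1. NME1, a nucleoside diphosphate kinase, had 41.0 and 47.0 CPM in the knockout, against 175 and 90.1 CPM in EV and 54.9 and 58.8 CPM untreated. AHCY, which recycles S-adenosylhomocysteine, was an exception called against both, at 233 and 239 CPM in the knockout, against 578 and 411 CPM in EV and 362 and 352 CPM untreated (-1.06 over EV and -0.59 over untreated). From the heat shock list HSPA8, the constitutive HSC70 chaperone, had 1098 and 1054 CPM in the knockout, against 2398 and 2031 CPM in EV and 853 and 914 CPM untreated. MYC itself, as above, was lower than both controls.

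**Figure D4:**
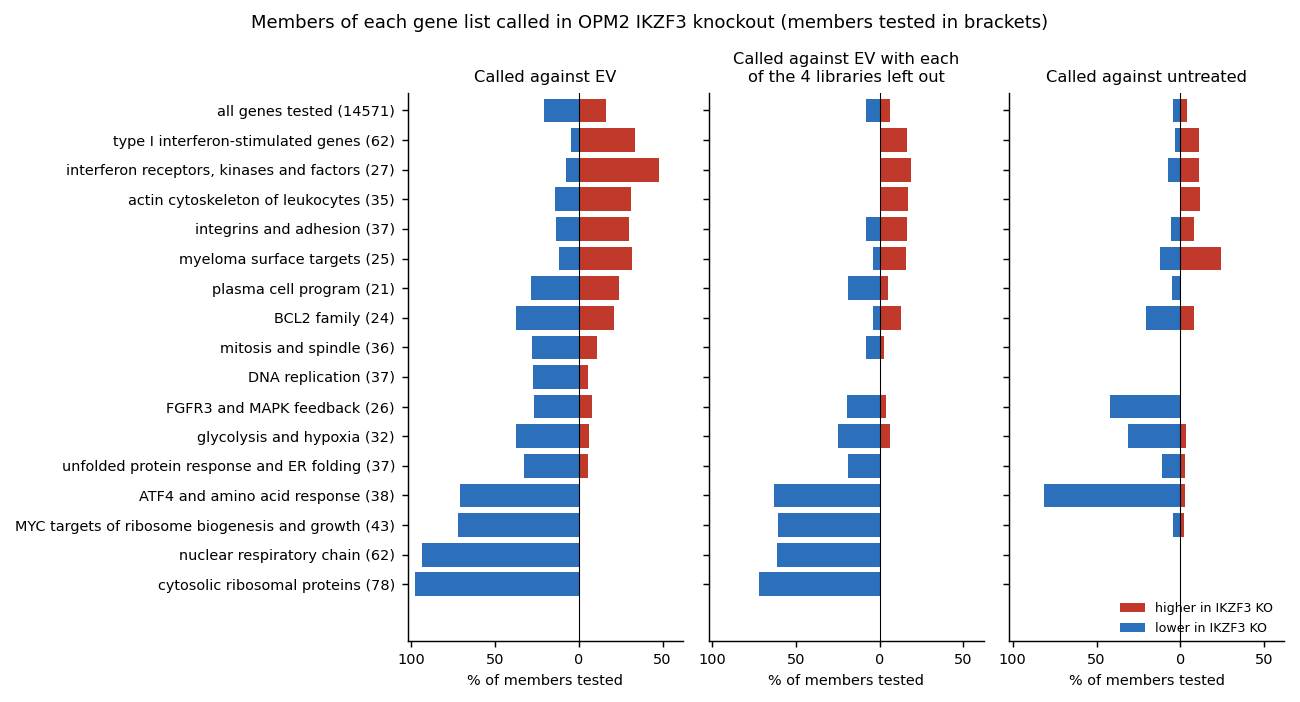
Share of the tested members of 17 groups, all genes tested among them, that was called higher (right of 0) or lower (left of 0) in IKZF3 knockout: against EV, against EV with each of the 4 libraries left out, and against untreated. Ribosomal, respiratory and MYC target genes are lower in the left and middle panels and almost empty on the right, where the ATF4 list has 31 of 38 genes lower.

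Proliferation genes went both ways, where over all genes 20.6% were called lower and 16.2% higher than EV. Of 37 DNA replication genes 10 were called lower and 2 higher than EV, 2 and 0 without EV replicate 1, none was stable and none was called against untreated. Of 36 mitosis genes 10 were lower and 4 higher, 5 and 1 without EV replicate 1, and 3 and 1 were stable. MKI67, the proliferation marker, had 288 and 336 CPM in the knockout, against 132 and 214 CPM in EV and 295 and 336 CPM untreated. Of 21 genes of D-type cyclins and G1 control 9 were higher and 1 lower, also without EV replicate 1, and 3 and 1 were stable. The CDK inhibitor CDKN1B (p27) had 276 and 250 CPM in the knockout, against 129 and 169 CPM in EV and 225 and 225 CPM untreated (0.82 over EV, 0.22 over untreated and not called there), and CDK4 had 178 and 188 CPM, against 421 and 268 CPM in EV and 200 and 192 CPM untreated. Of 24 genes of the BCL2 family 5 were called higher and 9 lower, but 5 and 2 without EV replicate 1, with 3 and 1 stable. MCL1, the survival factor of plasma cells, had 705 and 642 CPM in the knockout, against 331 and 417 CPM in EV and 434 and 434 CPM untreated (0.85 ± 0.13, adjusted p = 0.000635 by edgeR, and 0.63 over untreated). BCL2L11 (BIM) had 111 and 92.0 CPM in the knockout, against 37.8 and 51.1 CPM in EV, but 105 and 101 CPM untreated. BNIP3L (NIX), a mitophagy receptor, went opposite ways, at 46.7 and 39.6 CPM in the knockout, 13.7 and 21.5 CPM in EV and 149 and 130 CPM untreated.

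Of 21 plasma cell program genes 5 were called higher and 6 lower than EV, beside 16.2% and 20.6% over all genes. Only 1 was called against untreated, where it was lower. The median log2 fold change over EV was -0.19, and 0.03 without EV replicate 1. MZB1, a chaperone of antibody-secreting cells, had 158 and 148 CPM in the knockout, against 430 and 216 CPM in EV and 179 and 169 CPM untreated, and the folding enzyme FKBP11 had 66.3 and 64.8 CPM, against 216 and 118 CPM in EV and 87.0 and 86.7 CPM untreated. CD28, a costimulatory receptor that supports plasma cell survival, had 302 and 298 CPM in the knockout, against 154 and 196 CPM in EV and 288 and 274 CPM untreated. Of 32 glycolysis and hypoxia genes 12 were called lower and 2 higher than EV, and 10 lower and 1 higher than untreated, but EV itself had 11 of them lower and 4 higher than untreated. The histone gene HIST1H3H had 15.6 and 7.29 CPM in the knockout, against 3.16 and 2.92 CPM in EV and 4.92 and 3.51 CPM untreated, with knockout library a the higher. Of 16 histone genes 8 were called higher with none lower, but without EV replicate 1 these were 5 and 0, and with knockout library a left out 2 and 1. Stable and higher were 2.

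Set directly against the IKZF1 knockout in the same line, which used the same vector control, 378 genes differed (2.59% of those tested), 129 higher and 249 lower with IKZF3 knockout, and 19 and 52 were called in every fit that left out 1 of the 4 knockout libraries. The 2 knockouts share their EV libraries, so the direct difference, in which EV does not enter, is given. CD38 had 44.1 and 51.9 CPM with IKZF3 knockout and 44.5 and 48.8 CPM with IKZF1 knockout, a log2 difference of 0.04 ± 0.20 that was not called. CX3CR1 differed by 0.20 ± 0.31, IFIT3 by -0.63 ± 0.28, FGFR3 by -0.67 ± 0.30 and MYC by -0.57 ± 0.15, none of them called (adjusted p = 0.0538 for MYC by edgeR), which does not show that the knockouts act alike on them. Of the 38 genes of the amino acid response 9 were called lower with IKZF3 knockout and none higher, beside 249 lower of all 14571 genes, and the other 29 were not called. Of those 9, SESN2 and PSPH were called whichever knockout library was left out, ATF3 in 3 of the 4 such fits, ASNS in 1, and TRIB3, CHAC1 and CEBPB in none. INHBE, which is not on that list, had 8.18 and 7.74 CPM with IKZF3 knockout, against 58.5 and 51.7 CPM with IKZF1 knockout (-2.79 ± 0.23, adjusted p = 2.89e-05 by edgeR). SESN2 had 37.8 and 35.0 CPM, against 95.9 and 87.7 CPM with IKZF1 knockout (-1.34 ± 0.13, adjusted p = 6.06e-05 by edgeR), and PSPH had 27.0 and 30.1 CPM, against 67.8 and 60 CPM (-1.16 ± 0.13, adjusted p = 0.000313 by edgeR). INHBE was also called whichever knockout library was left out, and for these 3 genes the IKZF1 knockout lay between IKZF3 knockout and the controls.

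More genes separated the knockouts outside that list. PTPRN2 had 0.755 and 0.326 CPM with IKZF3 knockout, against 5.92 and 12.8 CPM with IKZF1 knockout (-4.20 ± 0.45, adjusted p = 0.000271 by edgeR), beside 10.7 and 8.03 CPM in EV. FUT1 had 1.2 and 1.47 CPM, against 13.8 and 9.65 CPM with IKZF1 knockout (-3.11), while lenalidomide gave 1.89 and 1.05 CPM. FLRT1 had 2.39 and 1.63 CPM, against 9.31 and 6.41 CPM with IKZF1 knockout (-1.99). On the higher side C16orf54 had 2.20 and 3.58 CPM with IKZF3 knockout, against 0.0651 and 0.235 CPM with IKZF1 knockout (4.20 ± 0.49, adjusted p = 0.000459 by edgeR). CYTH4 had 4.53 and 3.06 CPM, against 0.781 and 0.471 CPM (2.58), and RAP1GAP2 had 10.4 and 6.64 CPM, against 2.02 and 2.41 CPM (1.92). LCP1 differed by 1.07, MEGF6 by 2.94, DENND1C by 2.87 and TMPRSS2 by -2.88. All of these were called in every fit with 1 knockout library left out. BCL7A, TMEM51, P3H3, EMP2 and AJUBA were also named for this difference, but each was lost in at least 1 such fit. For P3H3 the IKZF1 knockout libraries themselves lay apart, at 1.24 and 12.1 CPM.

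**Figure D5:**
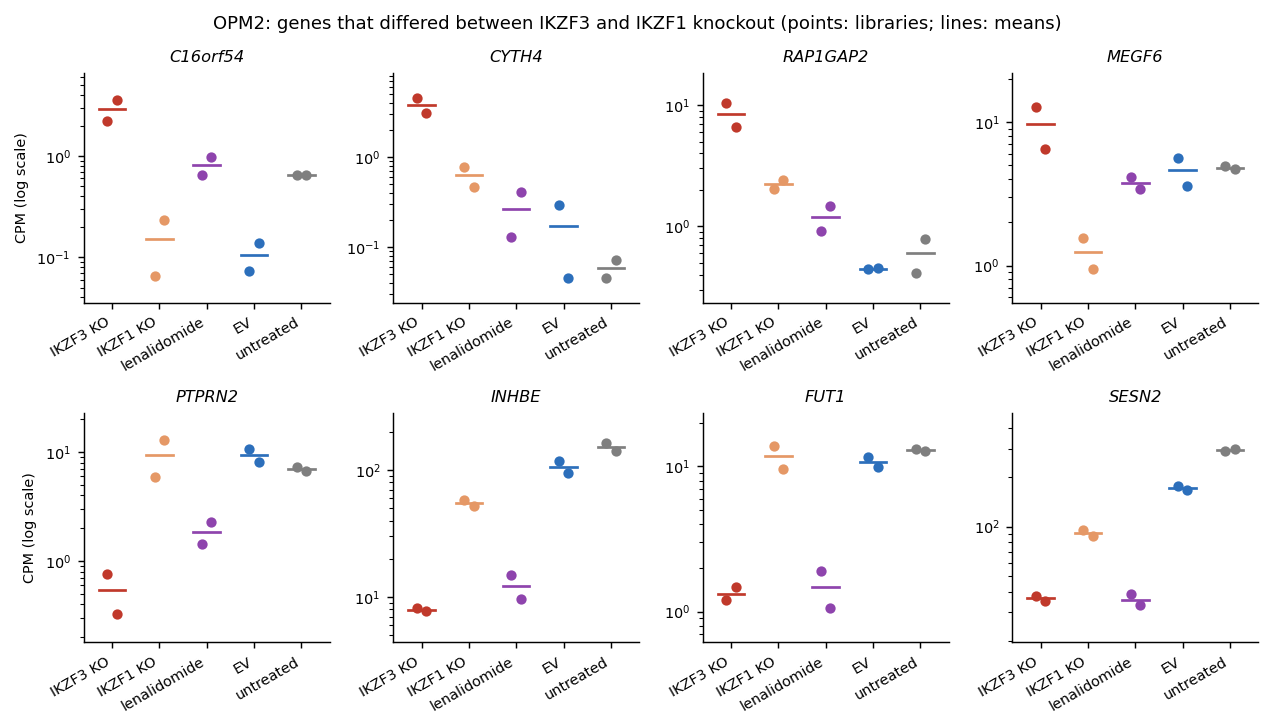
Level of 8 genes in the IKZF3 knockout, IKZF1 knockout, lenalidomide, EV and untreated OPM2 libraries, in CPM on a log axis, with 1 point per library and a line at the mean. INHBE and SESN2 are lower with IKZF3 knockout than with IKZF1 knockout, which lies below EV and untreated, and PTPRN2 and FUT1 are low with IKZF3 knockout and lenalidomide but not with IKZF1 knockout.

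Lenalidomide was set against the untreated libraries, and the labels name doxycycline for neither. The difference between the drug effect and the knockout effect therefore rests on separate controls. It was called for 962 genes (6.60%), 451 with the higher effect in the knockout and 511 with the lower, and 36 and 27 were called in each of the 8 fits that left out 1 library. With 1 library left out this count lay between 74 (without lenalidomide replicate 2) and 6720 (without EV replicate 2). CD38 had 28 and 28.9 CPM with lenalidomide, against 10.9 and 12.7 CPM untreated, and its knockout effect was not called different (0.27, adjusted p = 0.586 by edgeR). FGFR3 had 801 and 773 CPM with lenalidomide, against 2316 and 2268 CPM untreated, and its knockout effect differed by 0.12, which was not called. MYC had 220 and 218 CPM with lenalidomide, against 533 and 539 CPM untreated, with a difference of -0.03 that was not called. Of the 38 genes of the amino acid response 10 had the higher effect in the knockout and 1 the lower, with a median difference of 0.40. SESN2 changed by -3.04 with lenalidomide and by -2.24 in the knockout (difference 0.80, adjusted p = 0.0229 by edgeR), a call lost in at least 1 of the 8 fits. INHBE had 14.8 and 9.57 CPM with lenalidomide, against 162 and 140 CPM untreated, and its difference of -0.115 was not called. P2RY10, a lysophosphatidylserine receptor of lymphocytes, had the higher effect in the knockout, at 11.4 and 5.99 CPM in the knockout and 1.54 and 1.96 CPM in EV, while lenalidomide gave 0.849 and 1.05 CPM, against 5.24 and 5.15 CPM untreated (4.71, adjusted p = 0.00395 by edgeR). VAV1 had 110 and 77.6 CPM in the knockout and 33.3 and 22.1 CPM in EV, but 29.1 and 27.7 CPM with lenalidomide and 28.2 and 27.4 CPM untreated (1.74, adjusted p = 0.00649 by edgeR). TMPRSS2, a surface protease, had the lower effect, at 0.189 and 0.489 CPM in the knockout and 0.808 and 0.730 CPM in EV, while lenalidomide gave 2.87 and 2.51 CPM, against 0.368 and 0.215 CPM untreated (-4.16). These 3, with LCP1 (1.89), NAMPT (1.59), BNIP3L (2.13) and SCD5 (-4.88), were called in each of the 8 fits. FAM20C and IRF7 were named for this difference too and were lost in at least 1 of them. For LCP1, NAMPT and BNIP3L mean EV levels (2.69, 186 and 17.6 CPM) lay below untreated (6.085, 357 and 140 CPM). Over untreated, the log2 fold changes of the knockout were 0.07, -0.14 and -1.70, and those of lenalidomide -0.64, -0.79 and -0.85. The part of this gap between the controls in the 3 calls was not tested.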

How the data were processed

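Gene counts of 18 libraries from 3 myeloma cell lines were used as deposited. The submitters' processing notes name Subread, featureCounts, limma and the build GRCh38 (hg38), with no versions, and the labels' protocols name a TruSeq RNA kit, which does not mark strand. A second deposited table held log2 FPKM values made by the authors with the control replicates merged. It gives no replicate spread for EV and was not used for any test. Numbers in the knockout column names differ from those in the titles, and these columns were assigned to their group only.

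Counts were scaled by TMM and tested in edgeR 4.0.16 (R 4.3.3) with the robust quasi-likelihood fit over all 18 libraries in 9 groups of 2. This left 9 residual degrees of freedom. Of 28395 genes, 14571 passed filterByExpr and 385 rows of the table had no symbol. Genes with an adjusted p under 0.05 (Benjamini-Hochberg, over all genes tested) were called. SE is the absolute log2 fold change divided by the square root of F. CPM (counts scaled to a common library size) refers to reads of the TMM-scaled library and is not corrected for length, so levels are not compared between genes. Precision is limited by 2 libraries a group, where an exact two-sided permutation test cannot go below 0.333. Floors (3 counts over a group) and 95% intervals cover counting error only.

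Genes named were the targets IKZF3 and IKZF1, CD38, the 14 stable genes at either end of the fold changes whose groups did not overlap and whose mean log2 CPM reached 1, up to 4 members of smallest p in each of 41 lists, and the 5 highest and 5 lowest in each further contrast. Pseudogenes, uncharacterised loci, antisense and immunoglobulin genes were passed over, and any other gene is said to be chosen after its values were seen. The genes and lists were chosen with earlier results of these data known. GC content and length were those of the longest annotated transcript of each gene. They were matched for 96.9% of the genes tested, and their effect was corrected with splines as an alternative. Other alternatives were DESeq2 1.42.0, limma-voom (limma 3.58.1), other scalings, filters and sets of libraries. Promoter windows and their coordinates are from RefSeq on GRCh38.p14, and motifs were searched on both strands.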

Additional observations from a re-analysis of the deposited data

How the results depend on the processing

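Knockout against EV gave 5366 called genes. This number was 52 with only the 4 compared libraries fitted, 3506 with the 10 OPM2 libraries fitted, 1205 with untreated in place of EV (707 shared in the same direction), 745 tested against a 1.5-fold change and 3134 with GC content and length corrected and EV replicate 1 left out, an alternative chosen after seeing the data. Leaving out 1 library gave 2541 to 8016. The share of calls that were higher was 44% and became 51.8% without EV replicate 1 and 48.4% with DESeq2 size factors. The difference from IKZF1 knockout (378 genes) gave 107 with 10 libraries fitted, 810 with no filter, 579 with the DESeq2 Wald test and 119 to 236 with 1 library left out. The difference from the lenalidomide effect (962) gave 41 with 10 libraries, 2652 with no filter, 2167 with the Wald test and 74 to 6720 with 1 library left out. Fewer libraries in the fit leave fewer degrees of freedom and also change which groups the spread is estimated from. The cause of these changes in number was not tested. Of 112 named fold changes called over EV, 105 stayed called in the same direction without EV replicate 1, 67 with untreated in place of EV (36 lost the call and 9 reversed), 80 against a 1.5-fold change, 111 under voom and all 112 under DESeq2 size factors, the Wald test, upper quartile scaling and no filter. With only the 4 compared libraries fitted, 20 of the 105 tested stayed called and 85 lost the call. With GC content and length corrected, IKZF3 turned to -0.022, NSD2 to -0.044 and CD47 to -0.147. Against untreated, NAMPT turned to -0.138, NSD2 to -0.199, BCL2L11 to -0.022, BNIP3L to -1.698, MKI67 to -0.016, MCM7 to 0.028, SDHB to 0.035, HSPA8 to 0.285 and HDHD3 to 0. Reversed here means a value that changed sign or came to 0, called or not. Of these values only that of BNIP3L against untreated was called in its new direction (adjusted p = 0.000198 by edgeR), and the rest had lost the call. The cause of these changes was not tested. Genes with few reads in a group, such as CACNA1A and HDHD3, are limited by depth. No paired analysis was possible because the knockout columns carry none of the replicate numbers of the labels.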
